A study of Mus musculus with 6 samples.

Results

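The 10 genes described here make serine, asparagine and the precursor of proline, or carry amino acids across the plasma membrane. They are Phgdh, Psat1, Psph, Asns, Aldh18a1, Slc3a2, Slc7a5, Slc7a11, Slc7a1 and Slc7a3. They were chosen by name, as every row of the value table whose RefSeq transcript belongs to one of these symbols, which gave 12 of 32025 rows. All 10 genes had a row, out of 20263 genes with a named row. Aldh18a1 had 2 rows with identical values, and Slc3a2 had 2 rows that differ, so 11 rows carry separate values.

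The cells were neural stem cells of CD-1 albino mice, labelled with stage E14.5 and grown as neurospheres, floating clusters of dividing progenitors, under proliferation conditions. One group was nucleofected with a miR-128 mimic and the other with miR-Control, and RNA was taken 72 h later. Each group had 3 arrays, which the series' design text calls biological triplicates. Whether they came from separate embryos or cultures is not given in the sources used here, and the p-values measure the spread between these arrays. The design text says that these cells normally lack miR-128, and both groups went through nucleofection, an electrical transfection method.

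Cells make serine from a glycolytic intermediate in 3 steps, catalysed in order by the products of Phgdh, Psat1 and Psph. Serine then supplies glycine and one-carbon units for nucleotide synthesis, and dividing neural progenitors draw on this route. Asns makes asparagine from aspartate and glutamine. Slc3a2 encodes the heavy chain that brings light chains such as Slc7a5 and Slc7a11 to the cell surface, while Slc7a1 and Slc7a3 encode carriers of cationic amino acids that work without it. Most of these genes are known targets of ATF4, a transcription factor that is translated more when amino acids run short. In bulk RNA, fewer cells of a type and less RNA per cell cannot be told apart.

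MicroRNAs recognise transcripts mainly through their seed, bases 2 to 8. The sequence below shows what distinguishes the miR-128 arm, with the seed in capitals. It is the mature mouse form in RefSeq (GRCm38.p6), encoded at chr1:128202404-128202424 on the plus strand and at chr9:112118644-112118664 on the minus strand. The labels do not name the arm used in the mimic.
mmu-miR-128-3p: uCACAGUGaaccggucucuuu

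The genes were chosen by name and not by promoter sequence, but most are known ATF4 targets, so a match to its element is not independent of the choice. ATF4 binds, with C/EBP partners, to elements with the core TGATGNAA, and both strands of the RefSeq promoter windows (250 bases before to 50 after the start) were searched for it. Of the 10 genes 8 were matched to 10 windows in all, Slc7a3 and Slc7a5 to none. Asns and Slc7a11 held the core, against 3.97% of all 32851 windows. A gene counts here and below if any of its windows matched, so counts of genes and shares of windows are unlike units. The Asns match begins 23 bases before the start, and Slc7a11 holds the core once on each strand, beginning 66 and 47 bases before it. The stretches of 30 bases around them, on the minus strand of GRCm38.p6 at chr6:7693214-7693243 for Asns and chr3:50443652-50443681 for Slc7a11, have the matches in capitals, the second Slc7a11 match as the reverse complement.
Asns: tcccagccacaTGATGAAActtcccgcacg
Slc7a11: gcTGATGCAAacctggagaatTTGCATCAt
A further search for TGACNNNGC, the core of the element bound by the oxidative stress factor NRF2, matched Phgdh, Psph, Slc7a1 and Asns, against 12.4% of all windows. The E-box CACGTG matched Aldh18a1, against 7.15% of all windows. The motifs do not overlap in these windows, and a match is a run of letters, not evidence of binding.

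The values are log2 expression values, so a difference of 1 is a doubling. One array, miR-Control replicate 3, was set apart in a principal component analysis, with a first score of 42.5 where the other arrays scored between -18.7 and -0.226 and the component held 35.4% of the variance. Its interquartile range was 2.87, against 2.98 to 3.22 on the others. Against the label of neural stem cells, radial glia marker rows averaged 5.81 to 13.56, with Sox2 at 12.04 ± 0.33 in miR-128 cells and 11.94 ± 0.22 in miR-Control cells, and Vim at 13.56 ± 0.03 and 13.57 ± 0.05 (SD, n = 3 each). Rows of markers of other cell types spanned a wide range. Neuronal marker rows averaged 4.996 to 12.57, the highest being Map2. Oligodendrocyte lineage marker rows averaged 6.39 to 12.34, the highest being Olig1, and microglial marker rows averaged 4.78 to 7.31. Levels of different rows are not comparable and no detection values were used, so these rows do not show which cell types were present or absent.

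None of the 10 genes differed between miR-128 and miR-Control cells beyond the spread of the arrays. In limma's moderated test on all rows, 0 genes passed an adjusted p of 0.05 in either direction, where 0.0% of all rows passed. At an unadjusted p under 0.05 there were also 0 of the 10 genes, where 4.04% of all rows were higher and 3.11% lower at that level, 2291 rows or 7.15% in all. The ordinary statistics of the same model called 0 rows after adjustment and had 2037 at an unadjusted p under 0.05. The estimates ran from -0.18 for Psat1 to 0.26 for Slc7a11, with 5 genes higher and 5 lower in miR-128 cells and a median log2 fold change of 0.03, against 0.02 over all rows. One gene, Aldh18a1, had groups that did not overlap, higher in miR-128 cells, where 6.98% of all rows did so in that direction. The lowest adjusted p was 0.789, for Aldh18a1.

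**Figure D1:**
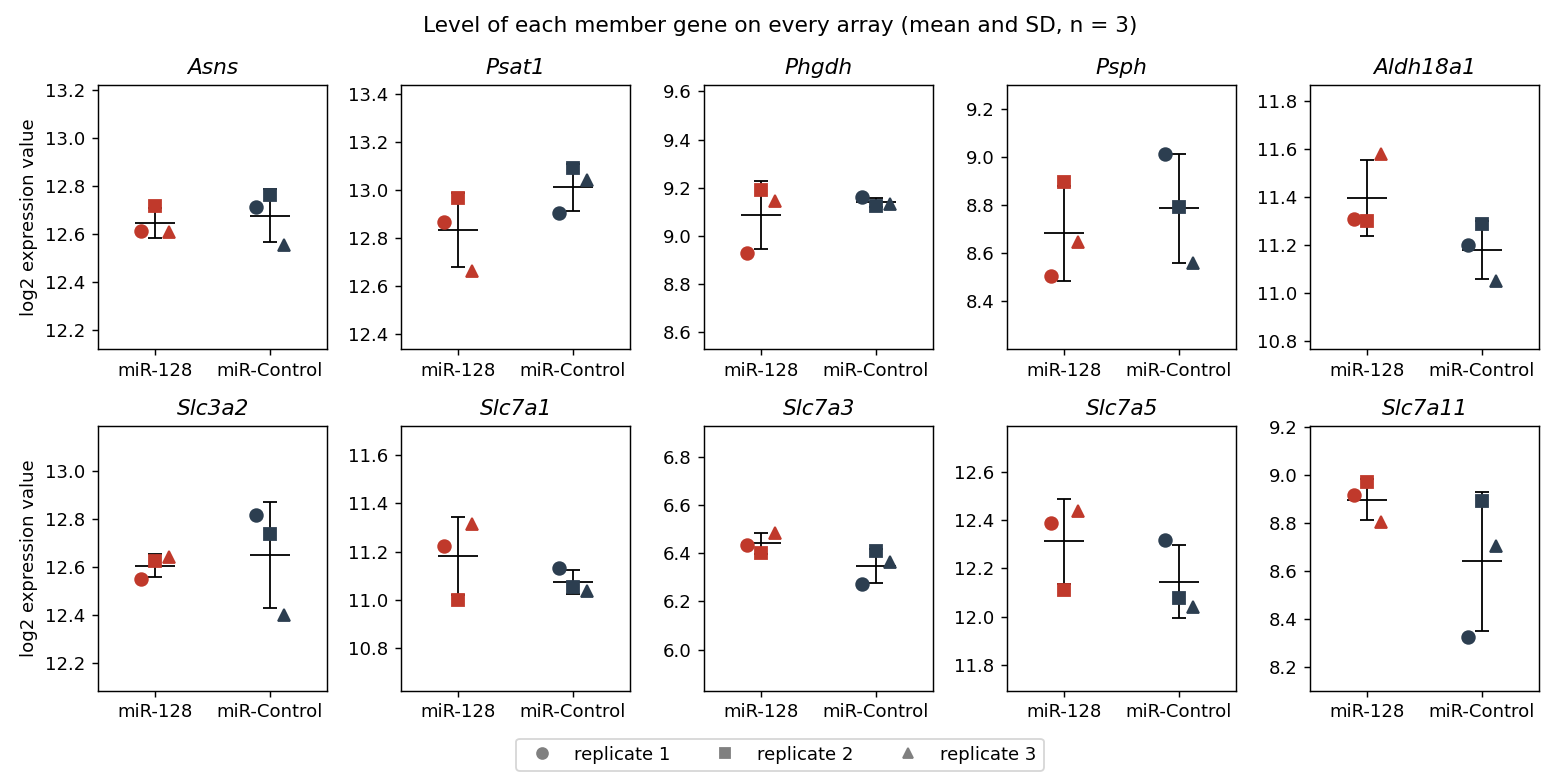
Log2 expression value of each of the 10 genes on every array, miR-128 left of miR-Control in each panel. Points are arrays with the marker giving the replicate number, bars are means with SD (n = 3), and every vertical axis spans 1.1 log2 units. Aldh18a1 is the gene whose groups do not overlap.

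The serine pathway genes had lower estimates in miR-128 cells, all within array spread. Phgdh encodes the first and committed enzyme of the route. It had 8.93, 9.19 and 9.15 in miR-128 replicates 1 to 3, against 9.16, 9.12 and 9.13 in miR-Control replicates 1 to 3. The controls lay close together, and miR-128 replicate 1 was well below them. This gave a log2 fold change of -0.05 (SE 0.11, 95% interval -0.30 to 0.19, adjusted p = 0.984), which changed sign to 0.03 when miR-128 replicate 1 was dropped.

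Psat1, the aminotransferase of the middle step, had 12.87, 12.97 and 12.67 in miR-128 cells, against 12.90, 13.09 and 13.04 in miR-Control cells. The groups overlapped through miR-128 replicate 2, and miR-128 replicate 3 was the lowest of the arrays. Its log2 fold change of -0.18 (SE 0.12, 95% interval -0.44 to 0.09, adjusted p = 0.858) was the most negative of the 10. It was -0.09 without miR-128 replicate 3.

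Psph encodes the phosphatase that releases serine. It had 8.51, 8.90 and 8.65 in miR-128 cells, against 9.01, 8.79 and 8.56 in miR-Control cells. Both groups spanned a wide range, with SDs of 0.20 in miR-128 cells and 0.23 in miR-Control cells. On average Psph differed by -0.10 (SE 0.15, 95% interval -0.44 to 0.24, adjusted p = 0.966). Dropping miR-Control replicate 3 gave -0.22, dropping miR-Control replicate 1 gave 0.01, and dropping miR-128 replicates 1 or 2 gave -0.02 or -0.21.

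Asns encodes asparagine synthetase. It had 12.61, 12.72 and 12.61 in miR-128 cells, against 12.71, 12.76 and 12.55 in miR-Control cells. The miR-128 values lay within the range of the controls. Asns thus had a log2 fold change of -0.03 (SE 0.11, 95% interval -0.27 to 0.21, adjusted p = 0.988), so the interval reaches from 0.829-fold to 1.15-fold, and 82.3% of all rows had a larger absolute estimate. Dropping miR-Control replicate 3 gave -0.09, and dropping miR-Control replicate 2 gave 0.01. Asns and the 3 serine enzymes, 4 genes, had 4 lower estimates and 0 that passed, where 43.2% of all rows had a lower estimate. Aldh18a1, the enzyme left out of this count, had a higher estimate.

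Aldh18a1 encodes the mitochondrial enzyme that turns glutamate into the precursor of proline and ornithine. It had 11.31, 11.30 and 11.58 in miR-128 cells, against 11.20, 11.29 and 11.05 in miR-Control cells. The groups were separated by a narrow gap, miR-128 replicate 2 against miR-Control replicate 2, with miR-128 replicate 3 well above the rest. Its log2 fold change of 0.22 (SE 0.12, 95% interval -0.06 to 0.49) is a 1.16-fold difference. Leaving out miR-128 replicate 3 gave 0.13.

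**Figure D2:**
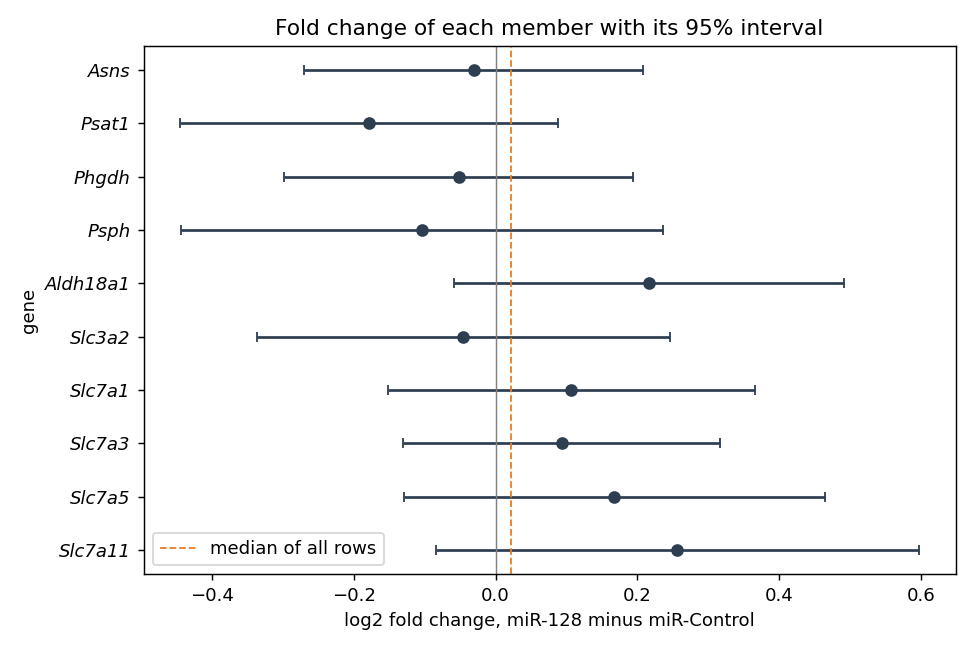
Log2 fold change of each gene, miR-128 minus miR-Control, with its 95% interval from limma's moderated variance (3 arrays a group). All 10 intervals include 0, and the dashed line is the median of all 32025 rows at 0.02.

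Among the carriers, the estimates of the heavy chain and its light chains differed in sign, all within array spread. Slc3a2 had 12.55, 12.63 and 12.64 in miR-128 cells, against 12.82, 12.74 and 12.40 in miR-Control cells, in its row of higher mean. The miR-128 arrays lay inside a wide control range, in which replicate 3 was the lowest. The mean difference was -0.05 on the log2 scale (SE 0.13, 95% interval -0.34 to 0.25, adjusted p = 0.988), and the other Slc3a2 row gave -0.04 (SE 0.13). Dropping miR-Control replicate 3 gave -0.17 (adjusted p = 0.467), and dropping miR-Control replicate 1 gave 0.04.

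Slc7a5 encodes LAT1, the light chain that exchanges large neutral amino acids such as leucine. It had 12.39, 12.11 and 12.44 in miR-128 cells, against 12.32, 12.08 and 12.04 in miR-Control cells. Replicates 1 and 3 of miR-128 lay above all controls and replicate 2 lay among them. The log2 fold change was 0.17 (SE 0.13, 95% interval -0.13 to 0.46, adjusted p = 0.904). Leaving out miR-128 replicate 2 gave 0.27, miR-Control replicate 1 gave 0.26 and miR-128 replicate 3 gave 0.10.

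Slc7a11 encodes xCT, the light chain that imports cystine in exchange for glutamate and so feeds glutathione synthesis. It had 8.92, 8.97 and 8.80 in miR-128 cells, against 8.32, 8.89 and 8.71 in miR-Control cells. The miR-128 arrays were close together, and 1 control, replicate 1, was far below the rest. The log2 fold change of 0.26 (SE 0.15, 95% interval -0.08 to 0.60, adjusted p = 0.814) was the largest of the 10, and 12.7% of all rows had a larger absolute estimate. Without miR-Control replicate 1 it was 0.10. The interval reaches from 0.943-fold to 1.51-fold.

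Relative to Slc3a2 on the same array and to the mean of the controls, Slc7a5 stood at 0.34, -0.00938 and 0.31 in miR-128 cells, against 0.01, -0.16 and 0.14 in miR-Control cells. The same difference for Slc7a11 was 0.38, 0.35 and 0.17 in miR-128 cells, against -0.48, 0.16 and 0.32 in miR-Control cells. Both sets of values overlapped between the groups, and these pairs were chosen after their values were seen.

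The carriers of cationic amino acids had higher estimates in miR-128 cells, with intervals that include 0. Slc7a1, which encodes CAT1, the widespread importer of arginine and lysine, had 11.22, 11.00 and 11.32 in miR-128 cells, against 11.13, 11.05 and 11.04 in miR-Control cells. miR-128 replicate 2 was the lowest of the arrays and replicate 3 the highest. This left a log2 fold change of 0.11 (SE 0.11, 95% interval -0.15 to 0.37, adjusted p = 0.945). With miR-128 replicate 2 dropped it was 0.20, and with miR-128 replicate 3 dropped it was 0.04.

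Slc7a3 encodes CAT3, a cationic carrier known from brain. It had 6.44, 6.40 and 6.49 in miR-128 cells, against 6.27, 6.41 and 6.36 in miR-Control cells. miR-128 replicate 2 lay within the control range. The log2 fold change was 0.09 (SE 0.10, 95% interval -0.13 to 0.32, adjusted p = 0.944), with the smallest standard error of the 10, and it was 0.05 without miR-Control replicate 1. The 4 SLC7 carriers had 4 higher estimates and 0 that passed, where 56.8% of all rows had a higher estimate. Slc3a2, the other carrier, had a lower estimate (-0.05), and Aldh18a1, the other enzyme, a higher one (0.22). The groupings by family and pathway leave these genes out, and the difference between SLC7 carriers and serine or asparagine enzymes was not tested.

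**Figure D3:**
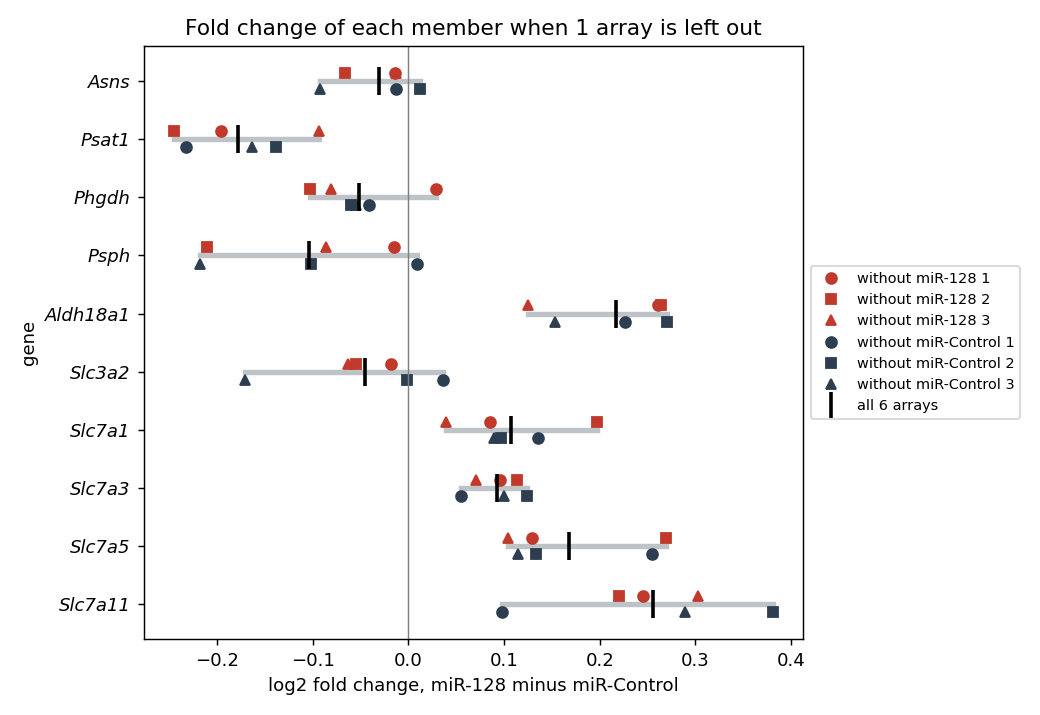
Log2 fold change of each gene with 1 array left out in turn (coloured markers, offset above the line for miR-128 arrays and below for miR-Control arrays) and with all 6 arrays (black tick). The estimates of Asns, Phgdh, Psph and Slc3a2 cross 0, and Slc7a11 moves to 0.10 without miR-Control replicate 1.

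Several genes had their extreme value on the same array. miR-128 replicate 3 was the highest of the 6 arrays for Aldh18a1, Slc7a1, Slc7a3 and Slc7a5. miR-Control replicate 3 was the lowest for Asns, Aldh18a1, Slc3a2 and Slc7a5. The median of the 10 genes, relative to the mean of the controls, was 0.01, 0.04 and 0.07 in miR-128 replicates 1 to 3, against 0.03, 0.07 and -0.07 in miR-Control replicates 1 to 3. Without miR-Control replicate 3 the split stayed at 5 higher and 5 lower, with 0 passing and a median of 0.02.

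The enzymes that use serine and glycine came next. Of 13 measured genes 8 had lower and 5 higher estimates in miR-128 cells, 0 passed, and the median was -0.04. That median was -0.09 with either replicate 3 array left out, and -0.01 with miR-Control replicate 2 left out. Shmt1, the cytosolic enzyme that splits serine into glycine and a one-carbon unit, had 9.08, 9.42 and 9.55 in miR-128 cells, against 9.99, 10.02 and 9.59 in miR-Control cells. Its groups did not overlap, although miR-Control replicate 3 lay close to the miR-128 arrays. The log2 fold change was -0.51 (SE 0.16, 95% interval -0.88 to -0.14, adjusted p = 0.540).

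Gcsh encodes the lipoyl carrier protein of the mitochondrial glycine cleavage system. It had 6.66, 6.95 and 6.63 in miR-128 cells, against 7.32, 7.20 and 6.97 in miR-Control cells, a log2 fold change of -0.42 (SE 0.14, adjusted p = 0.556). Gcat, which takes part in threonine breakdown to glycine, differed by -0.23 (SE 0.10, adjusted p = 0.685). In this list 3 of 13 genes had groups that did not overlap, all lower, where 4.87% of all rows did so in that direction. Without miR-Control replicate 3 the values were -0.65 for Shmt1, -0.52 for Gcsh and -0.20 for Gcat.

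Genes of aspartate, glutamate, asparagine and glutamine had 8 higher and 4 lower estimates among 12 measured, 0 passed, and the median was 0.04. It changed sign to -0.0140 without miR-Control replicate 1 and to -0.00088 without miR-128 replicate 2. Ass1, which joins citrulline to aspartate in arginine synthesis, had 7.61, 7.48 and 7.49 in miR-128 cells, against 7.49, 6.78 and 6.65 in miR-Control cells. Here miR-Control replicate 1 lay with the miR-128 arrays and the other controls lay far lower, for a log2 fold change of 0.55 (SE 0.20, adjusted p = 0.615). Glud1, glutamate dehydrogenase, differed by 0.23 (SE 0.12, adjusted p = 0.768), or 0.13 without miR-Control replicate 3, and Asrgl1, an asparaginase, by 0.17 (SE 0.10, adjusted p = 0.822).

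Of 9 measured genes of proline and arginine metabolism 5 had higher and 4 lower estimates and 0 passed. Their median was 0.06, and it turned to -0.03 without miR-Control replicate 3. Aldh4a1, which breaks proline down to glutamate, had 7.78, 7.79 and 7.85 in miR-128 cells, against 7.99, 7.95 and 8.01 in miR-Control cells. Its groups did not overlap, and it differed by -0.18 (SE 0.10, adjusted p = 0.781), and the ornithine aminotransferase Oat by 0.17 (SE 0.12, adjusted p = 0.876), or 0.09 without miR-Control replicate 3.

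Other members of the SLC7 family with the heavy chain Slc3a1 had 10 higher and 2 lower estimates among 12 measured, where 56.8% of all rows were higher. Their median was 0.07 and 0 passed. The estimates of smallest p were 0.15 for Slc3a1 (SE 0.13, adjusted p = 0.926), 0.14 for Slc7a13 (SE 0.11, adjusted p = 0.920) and 0.13 for Slc7a9, the light chain that pairs with Slc3a1 (SE 0.12, adjusted p = 0.931). Groups overlapped in all 12 genes, where 11.9% of all rows had groups that did not. Without miR-Control replicate 3 all 12 had higher estimates and the median was 0.12. In that fit 11957 of all 20263 named genes were higher and their median was 0.04, against 0.02 with all arrays. Quantile normalization gave the list of 12 a median of 0.02. The mean level of the list was 6.505 to 6.70 on the arrays, below the array medians of 7.396 to 7.54. Whether a background shift shared by low rows contributed to these estimates was not tested.

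Amino acid carriers outside the SLC7 family held the largest estimate of the related lists. Of 30 measured, 22 had higher and 8 lower estimates in miR-128 cells, where 56.8% of all rows were higher. Of the list 0 passed, and the median was 0.06. It was 0.08 without miR-Control replicate 3, where that of all named genes was 0.04. Quantile normalization and array centring each gave 0.03. Slc6a9 encodes the glycine transporter GlyT1. It had 10.37, 10.28 and 10.55 in miR-128 cells, against 9.60, 9.89 and 9.66 in miR-Control cells. All miR-128 arrays lay above all controls, by 0.68 on average (SE 0.12, 95% interval 0.40 to 0.96), a 1.61-fold difference whose adjusted p of 0.244 did not pass, and 0.65 without miR-Control replicate 3.

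Slc1a2, the main astrocytic glutamate importer, had 9.82, 9.53 and 9.77 in miR-128 cells, against 9.39, 9.26 and 9.07 in miR-Control cells, a log2 fold change of 0.47 (SE 0.13, adjusted p = 0.456). Slc1a4 encodes ASCT1, which exchanges serine and other small neutral amino acids. It had 10.96, 10.95 and 11.09 in miR-128 cells, against 10.67, 10.81 and 10.52 in miR-Control cells, a log2 fold change of 0.33 (SE 0.11, adjusted p = 0.581). Without miR-Control replicate 3 the differences were 0.38 for Slc1a2 and 0.26 for Slc1a4. Both had groups that did not overlap, with 6 of 30 genes of the list higher in that way, where 6.98% of all rows were.

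Marker lists of other cell types were set beside these carriers. Astrocyte markers had 5 of 6 higher estimates, but Slc1a2 is itself among them. Over the other 5 markers the mean level was 7.83 to 7.91 on the miR-128 arrays, against 7.71 to 7.85 on the miR-Control arrays, so the groups overlapped. Of these, S100b differed by 0.32 (SE 0.11, adjusted p = 0.578), with groups that did not overlap. Aqp4 differed by 0.16, Aldh1l1 by 0.14 and Gfap by 0.07. Only Gja1, a gap junction gene, was lower, by -0.29 (SE 0.13, adjusted p = 0.698), also without overlap. Oligodendrocyte lineage markers had 6 of 7 higher estimates, with a mean level of 8.92 to 9.05 in miR-128 cells, against 8.72 to 8.82 in miR-Control cells. The mean levels of neuronal, microglial, vascular, mesenchymal and radial glia markers overlapped between the groups. Single radial glia markers moved both ways, with 4 higher and 4 lower estimates. Fabp7 differed by -0.30 (SE 0.11, adjusted p = 0.641) with groups that did not overlap. Nes differed by -0.30 (SE 0.19) and Notch1 by 0.28 (SE 0.14), both with overlap. No marker passed the test, and the part of these cell types in the carrier values was not tested.

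**Figure D4:**
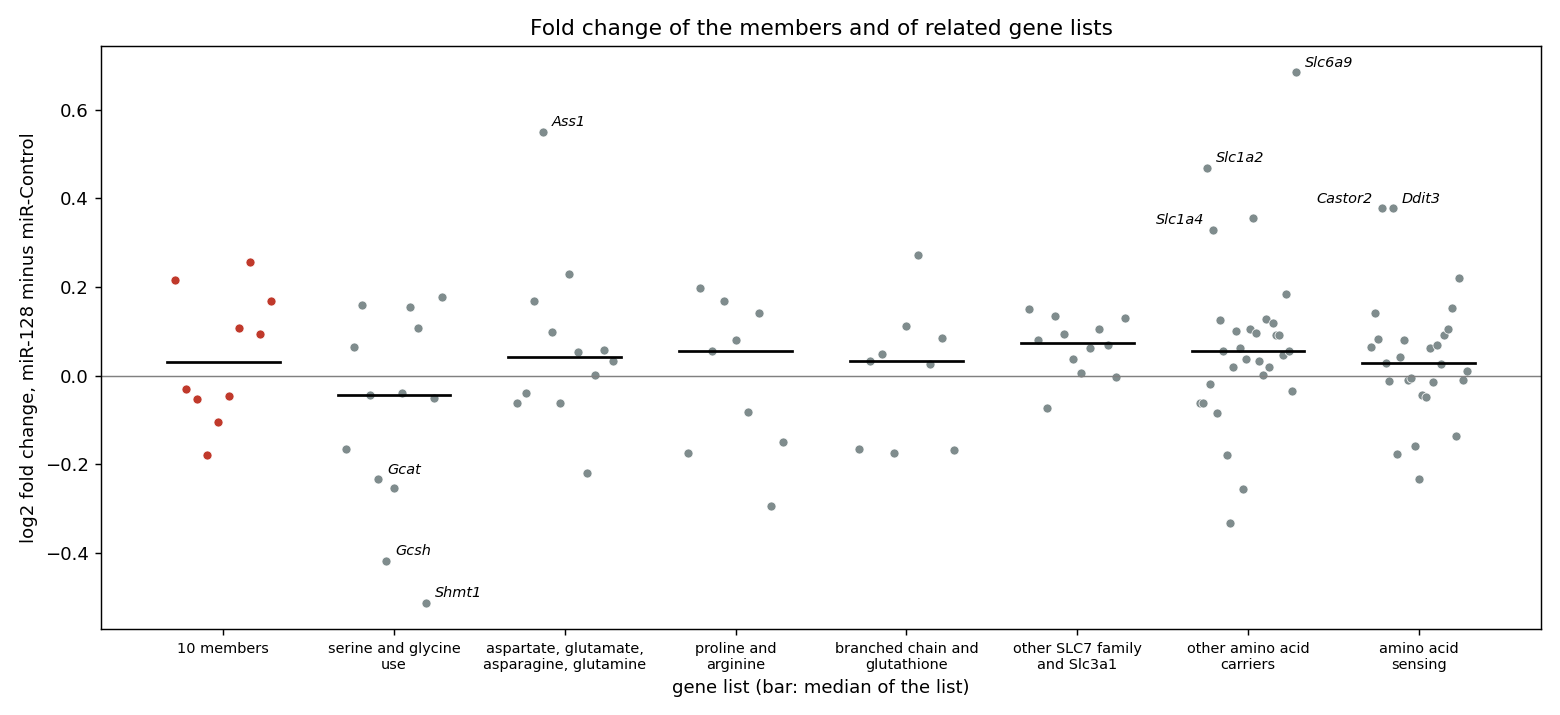
Log2 fold change, miR-128 minus miR-Control, of each measured gene in the 10 members (red) and in 7 related lists (grey), with the list median as a bar. Names mark genes among the 3 of smallest p in their list with an unadjusted p under 0.05, and no gene passed after adjustment over all rows.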

How the data were processed

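Total RNA of 6 samples, 3 per group, was measured on exon arrays. The authors deposited log2 expression values, 1 per RefSeq transcript row, made with RMA and affy per the submitters' processing notes. No version, probe grouping or genome build was named. RMA tends to shrink fold changes, and the number of arrays limits the precision. Row accessions were matched without versions to the RefSeq gene table of GRCm38.p6, used for names, which named 25343 of 32025 rows.

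All rows were fitted with limma 3.58.1 in R 4.3.3 (lmFit and eBayes, unpaired, two-sided, no filter), with Benjamini-Hochberg adjustment over all rows and a threshold of 0.05. Intervals are 95% moderated intervals. A gene is represented by its row of highest mean. Named are the 10 members, Atf4 and the 3 genes of smallest p of each related list, of which 1 is not reported here. Members and lists were chosen with earlier results of these data known, so lists are described by counts and medians. The fit was also run on simulated rows with independent arrays, a setting that holds no array set apart like miR-Control replicate 3. Alternatives were array centring, quantile normalization, a level filter, a replicate block, array weights, a trended or no prior, identical rows counted once, a gene's rows averaged, and each array left out.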

Additional observations from a re-analysis of the deposited data

How the results depend on the processing

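No member passed an adjusted p of 0.05 under any alternative that gave one, and the lowest was 0.241, for Slc7a11 under array weights. Averaging a gene's distinct rows gave values with no test. Ordinary statistics, a trended prior, the replicate block, the level filter and identical rows counted once leave an estimate unchanged by construction. Averaging rows could change only Slc3a2. Of 149 member estimates under alternatives, which include these, 4 changed sign, all with 1 array left out. Over those fits Phgdh ran from -0.10 to 0.0286, Psph from -0.22 to 0.00861, Slc3a2 from -0.17 to 0.0364 and Asns from -0.0924 to 0.0124. The positive values came without miR-128 replicate 1 for Phgdh, miR-Control replicate 1 for Psph and Slc3a2, and miR-Control replicate 2 for Asns. The number of members with a lower estimate was 3 to 5 when 1 array was left out. Restricting the test to rows above the median level leaves out Slc7a3, which turned the median of the members to -0.0311. Over the whole table, 1 row was called higher and 3 lower under that filter, and 7 higher and 17 lower under array weights, none of them a member. The labels do not say whether a replicate number pairs 2 arrays. Same-numbered arrays had deviations from their group means that correlated at -0.00278, 0.17 and 0.05, which with 3 arrays a group cannot decide it. A fit with the replicate block gave Aldh18a1 0.22 (adjusted p = 0.777), called 0 rows and changed no call, and not every array correlated best with its own number. Array number limits all values: the median 95% interval of a row reached 0.29 to each side on the log2 scale.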

Other observations

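Genes of amino acid sensing and of the stress response, among them ATF4 targets such as Ddit3, had 16 higher and 11 lower estimates in miR-128 cells among 27 measured. In limma 0 passed and 2 had an unadjusted p under 0.05 (both higher, where 4.04% of all rows were). The median log2 fold change was 0.03. Without miR-Control replicate 3 the split was 12 higher and 15 lower, with a median of -0.02. Atf4, the factor that acts on Asns and several of the carriers, had 10.39, 10.54 and 10.42 in miR-128 cells, against 10.40, 10.53 and 10.22 in miR-Control cells, a log2 fold change of 0.07 (95% interval -0.20 to 0.33, adjusted p = 0.979) that was -0.02 without miR-Control replicate 3. Its groups overlapped almost fully. Ddit3, a stress-induced factor that ATF4 activates, had 8.64, 8.53 and 8.91 in miR-128 cells, against 8.50, 8.28 and 8.16 in miR-Control cells, with no overlap and a log2 fold change of 0.38 (SE 0.14, adjusted p = 0.621). Castor2, a relative of the arginine sensor of mTORC1, differed by 0.38 (SE 0.14, adjusted p = 0.644), and Lamtor2, part of the lysosomal anchor of mTORC1, by -0.23 (SE 0.12, adjusted p = 0.759).

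Genes of branched-chain amino acid and glutathione metabolism had 6 higher and 3 lower estimates among 9 measured, with 0 that passed and 0 at an unadjusted p under 0.05, where 7.15% of all rows were. Without miR-Control replicate 3 the split was 3 higher and 6 lower. Chac1, which degrades glutathione and is a known ATF4 target, had 9.53, 9.40 and 9.92 in miR-128 cells, against 9.17, 9.35 and 9.51 in miR-Control cells, a log2 fold change of 0.27 (SE 0.16, adjusted p = 0.803) with overlapping groups. Bcat1, the cytosolic branched-chain aminotransferase, differed by -0.17 (SE 0.10, adjusted p = 0.831) and glutathione synthetase Gss by -0.17 (SE 0.12, adjusted p = 0.880).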
